A study of Mus musculus with 2 samples.

Results

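The Runx family was examined in liver immune cells of mice through its 3 DNA-binding members, Runx1 (ENSMUSG00000022952), Runx2 (ENSMUSG00000039153) and Runx3 (ENSMUSG00000070691), and their shared partner Cbfb (ENSMUSG00000031885). These 4 genes are the rows that carry those symbols among 33696 gene rows of each count table. Levels were read in 8 cell classes gated by lineage markers. The genes were taken by symbol as a family, with earlier results of these data known. The study's 2 groups, with 1 single-cell library each, were compared. The untreated library came from age-matched C57BL/6J mice of WT genotype. The ConA library came from C57BL/6J mice of WT genotype injected with concanavalin A (ConA), a lectin from jack beans that stimulates T cells, intravenously at 10 mg/kg with 1 injection per week for 3 weeks, a schedule the labels present as a model of immune tolerance. In both groups leukocytes were enriched from liver on Ficoll and sorted for CD45 before 3' library preparation. The number of mice behind each library, their age and the interval after the last injection are not given in the sources used here. No replicate stands behind either group, so each difference describes the 2 libraries, and treatment and library cannot be told apart. Intervals are exact 95% intervals and cover counting error only.

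Runx proteins bind DNA through the Runt domain and either activate or silence their targets with the help of cofactors. Cbfb does not bind DNA itself but stabilises the binding of all 3 Runx proteins. Runx1 is known for its part in the formation of blood stem cells and in lymphoid and megakaryocyte development. Runx3 is known for silencing Cd4 and driving cytotoxic genes in CD8 T cells and for its part in natural killer (NK) cells and innate lymphoid cells. Runx2 is the bone-forming member and is also known in plasmacytoid dendritic cells (pDCs), the interferon-producing dendritic cells. Cd4, Cd8a and Csf1r, used here as gates, are themselves known Runx targets.

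Each Runx gene has a start site whose surroundings hold the Runx recognition word as a tandem pair, and these windows are shown because they are the sequence the 3 genes have in common. RefSeq promoter windows (build GRCm38.p6, 250 bases before to 50 bases after each annotated start) covered all 4 genes, with 2 windows for Runx1 and for Runx3. Read 5′ to 3′ on the gene's strand, the capitals mark ACCACA, the reverse complement of TGTGGT.
Runx1: ataaacaACCACAgaACCACAagttggg
Runx2: acaaacaACCACAgaACCACAagtgcgg
Runx3: tccctcaACCACAgaACCACAaggccag
The Runx1 window lies at chr16:92826026-92826053 on the minus strand, the Runx2 window at chr17:44814584-44814611 on the minus strand and the Runx3 window at chr4:135120504-135120531 on the plus strand. The 18-base word CAACCACAGAACCACAAG is identical in the 3 genes and begins 26 bases after the annotated start in Runx1, 21 bases after it in Runx2, and at position -136 relative to it in Runx3. Searched on both strands, that word stood in 4 of 32851 promoter windows (0.0122%), those of the 3 Runx genes and of the gene model Gm16225. ACCACA alone stood in 5506 windows (16.8%), and a pair of them with starts 8 bases apart, as in the word, stood in 7 (0.0213%). The word was chosen as the longest one shared by windows of the 3 Runx genes. Their own matches, also among the 7 pairs, were thus fixed in advance. The other Runx1 window (chr16:92697280-92697579), the other Runx3 window (chr4:135152295-135152594) and the Cbfb window (chr8:105170424-105170723) held 0 copies of ACCACA. A match is a description of letters and not a bound site. Counts taken at the 3' end cannot tell the promoters of a gene apart.

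After filtering, 17632 untreated and 17767 ConA cells were kept, with medians of 3128 and 3471 unique molecular identifiers (UMIs, counted RNA molecules) per cell. The libraries shared 82 cell barcodes. The exclusive gates took 7720 untreated cells (43.78%) and 8765 ConA cells (49.33%), and most of the cells left outside carried markers of several classes (6608 untreated, 4638 ConA) or no lineage marker (1879 and 3154). The independent markers of each class but other T were all highest in that class in both libraries. Other T cells had no markers of their own, and the 5 shared T cell markers were highest in CD4 T or CD8 T cells. Ptprc, which encodes CD45, lay between 1202 and 2429 CPM (counts scaled to 1000000 UMIs of the class) in each gated class. Gated cells numbered 2754 untreated and 2503 ConA B cells, 384 and 960 CD4 T, 312 and 1177 CD8 T, 875 and 2396 other T, 626 and 872 NK and ILC1 (type 1 innate lymphoid), 1961 and 315 neutrophils, 492 and 150 monocytes and macrophages, and 316 and 392 pDCs. Haemoglobin and Alas2 UMIs summed to between 898.4 and 9485 CPM in the untreated classes and to between 10070 and 57845 CPM in the ConA classes. RNA free in the droplets was estimated at 6.061% to 13.49% of the untreated and 6.401% to 18.74% of the ConA classes' UMIs.

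Over all kept cells the 4 members were higher in the ConA library. Runx1 was at 446.2 CPM in the untreated and 698.4 in the ConA library. Runx2 was at 186.9 and 303.3 CPM, and Runx3 at 109.6 and 191.3. Cbfb was at 102.7 and 129.9 CPM. The log2 ratios of ConA over untreated, computed with 5 CPM added to both levels, were 0.64 for Runx1, 0.68 for Runx2, 0.78 for Runx3 and 0.32 for Cbfb. Runx1, Runx2 and Runx3 were past 1.5-fold and Cbfb was not, where 8.28% of 9133 genes compared over all cells were higher past that fold and 11.2% were lower past it. None of the 3 was past it when centred on genes of similar genomic length (0.36, 0.41 and 0.58), and Runx2 was not with per-cell means (0.55). These sums mix levels within classes with the number of cells of each class, and these are taken apart below.

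Within the 8 classes, 14 of the 32 comparisons of a member were past 1.5-fold higher in the ConA library and 0 were past it lower. Runx1 and Runx2 accounted for 6 each, and Runx3 and Cbfb for 1 each. Among all genes compared in a class, the share that was higher past 1.5-fold was 3.52% in B cells, 5.47% in CD4 T, 7.39% in CD8 T, 5.36% in other T, 6.08% in NK and ILC1, 19.8% in neutrophils, 21.7% in monocytes and macrophages and 8.28% in pDCs. The share that was lower past it was 5.89% in B cells, 5.35% in CD4 T, 6.56% in CD8 T, 5.17% in other T, 7.76% in NK and ILC1, 10.4% in neutrophils, 8.7% in monocytes and macrophages and 6.44% in pDCs. Neutrophils and monocytes and macrophages had the largest shares of higher genes. The intervals of the ratios lay above 0 in 8 of 8 classes for Runx1 and for Runx2, in 5 of 8 for Runx3 and in 6 of 8 for Cbfb. Against genes of similar genomic length (below), the Runx1 ratio in monocytes and macrophages was -0.05 and the Runx2 ratio in pDCs 0.03. Of the 14 comparisons, Runx2 in B cells and Runx3 in neutrophils stood close to the estimated level of free RNA.

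**Figure D1:**
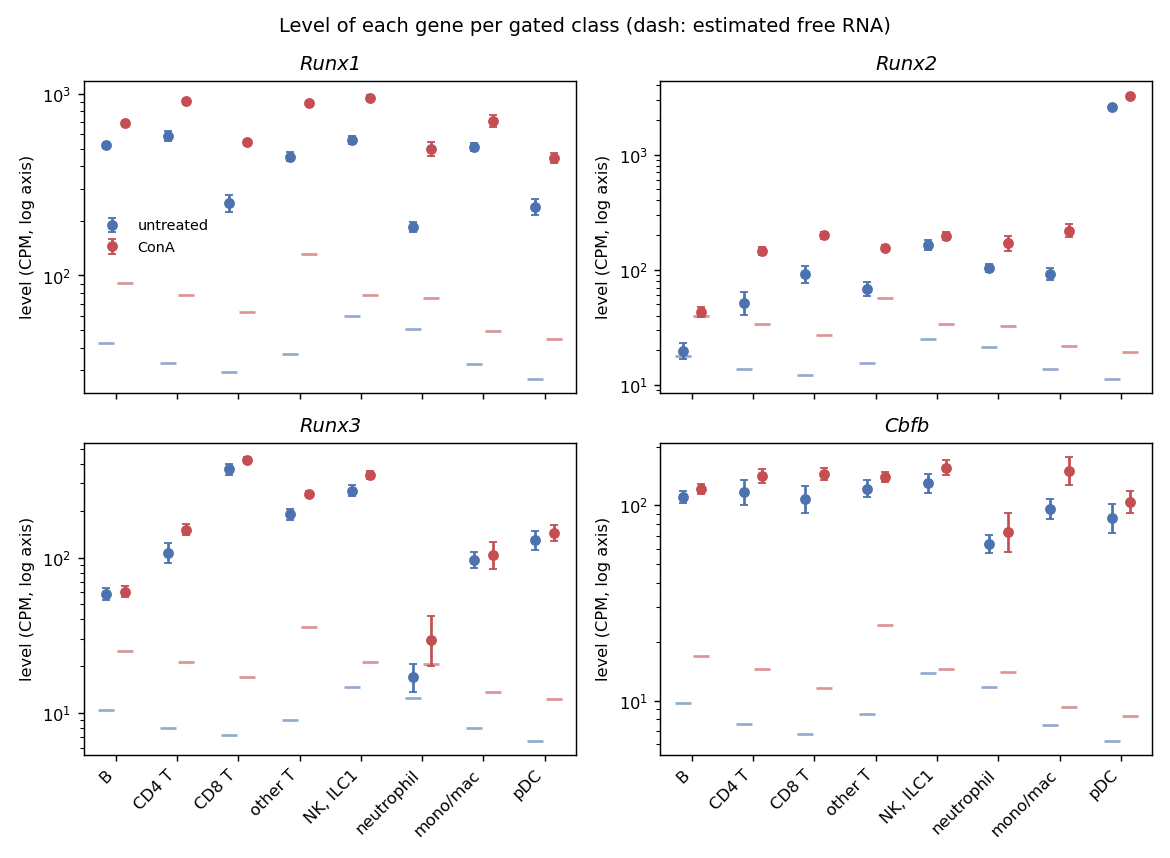
Level of each gene (CPM, log axis) in the 8 gated classes of the untreated (blue) and ConA (red) libraries, with exact 95% counting intervals; dashes mark the estimated free RNA level. Runx2 in pDCs stands at 2569 and 3209 CPM, far above every other gated class, and Runx2 in B cells lies at its free RNA dash.

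Runx1 was detected in every class. In the untreated library it was highest in CD4 T cells (589.1 CPM), NK and ILC1 (556.1), B cells (519.5) and monocytes and macrophages (511.7), whose neighbouring intervals overlapped. Other T cells followed at 451.6 CPM, and CD8 T cells (249.0), pDCs (239.0) and neutrophils (184.9) formed a lower group. In the ConA library NK and ILC1 (947.9 CPM), CD4 T (910.6) and other T cells (893.8) overlapped at the top. Monocytes and macrophages (708.6) and B cells (692.8) came next, and CD8 T (539.7), neutrophils (499.6) and pDCs (441.4) were again the lowest 3 classes. The lower group was thus made of the same 3 classes in both libraries.

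The Runx1 ratio between libraries was largest in neutrophils, the class with the lowest untreated level. There the log2 ratio was 1.41, and the interval of the ratio without the added constant, given in parentheses here and below, was 1.28 to 1.59 (1004 and 505 UMIs). The share of neutrophils with a Runx1 UMI was 29.12% and 58.73%, or 14.38% and 33.11% after thinning every cell to 1000 UMIs. In cells rich in haemoglobin, used as a background, that share was 19.27% and 17.85%, or 10.53% and 8.274% after thinning. The thinned intervals of neutrophils and background overlapped in the untreated library (12.81% to 16.06% against 5.164% to 18.51%) and did not in the ConA library (27.74% to 38.82% against 6.342% to 10.56%).

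In CD8 T cells the Runx1 log2 ratio was 1.10 (0.96 to 1.28), and 0.894% of the genes compared there had a higher ratio. In other T cells it was 0.98 (0.90 to 1.07). In pDCs it was 0.87 (0.71 to 1.06), but it was 0.50 when likely doublets were removed, which ends the call. In NK and ILC1 it was 0.76 (0.68 to 0.86) and in CD4 T cells 0.62 (0.52 to 0.73). B cells, at 0.41 (0.36 to 0.47), and monocytes and macrophages, at 0.47 (0.34 to 0.60), were within 1.5-fold.

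Runx2 was highest in pDCs. Its level in pDCs was 2569 CPM untreated and 3209 ConA, from 4106 and 6943 UMIs, and 96.2% and 97.19% of gated pDCs had a Runx2 UMI. The pDC gate held 31.2% of all Runx2 UMIs of the untreated library and 31.89% of those of the ConA library. Among the other gated classes the next highest was NK and ILC1 at 163.3 CPM untreated and monocytes and macrophages at 219.0 CPM in the ConA library. Conventional dendritic cells outside the gates, given below, were above these levels. In pDCs the log2 ratio between libraries was 0.32 (0.27 to 0.38), within 1.5-fold.

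Outside pDCs the lower Runx2 levels differed more between the libraries. CD4 T cells had 51.09 CPM untreated and 145.4 ConA, a log2 ratio of 1.42 (1.17 to 1.86), which only 0.455% of the genes compared in CD4 T cells exceeded. Other T cells had 67.72 and 155.5 CPM, a log2 ratio of 1.14 (0.99 to 1.42). CD8 T cells had 91.48 and 198.8 CPM, a log2 ratio of 1.08 (0.86 to 1.39). All 3 T cell gates were thus past 1.5-fold, whereas NK and ILC1 were at 163.3 and 197.2 CPM with a log2 ratio of 0.26 (0.09 to 0.46). Monocytes and macrophages had 92.16 and 219.0 CPM, a log2 ratio of 1.21 (0.99 to 1.51), and neutrophils 103.3 and 170.2 CPM, a log2 ratio of 0.69 (0.46 to 0.97). In B cells Runx2 was at 19.8 and 43.29 CPM, where free RNA alone was estimated at 17.72 and 39.52 CPM. The share of B cells with a Runx2 UMI was 4.466% and 10.71%, beside 11.01% and 8.357% of haemoglobin-rich cells. After thinning it was 1.676% and 3.48% in B cells and 2.105% and 2.568% in haemoglobin-rich cells. The thinned intervals of B cells and haemoglobin-rich cells overlapped in each library. Whether B cells express Runx2 beyond this background was not tested. The median depth was 2711 and 3202 UMIs in B cells and 3440 and 2900 UMIs in the haemoglobin-rich cells.

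Runx3 followed the cytotoxic lymphocytes. CD8 T cells were highest in both libraries, at 369.4 CPM untreated and 423.4 ConA. NK and ILC1 came next at 269.3 and 341.5 CPM, then other T cells at 190.1 and 255.8. The intervals of these 3 classes did not overlap in either library. CD4 T cells (107.2 and 151.0 CPM), pDCs (128.9 and 144.2) and monocytes and macrophages (96.15 and 104.0) formed a middle group. B cells were lower at 58.22 and 60.36 CPM. Neutrophils, at 16.94 and 29.68 CPM from 92 and 30 UMIs, were close to the free RNA estimates of 12.53 and 20.54 CPM.

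Within classes Runx3 differed little between the libraries. The log2 ratio was 0.48 (0.25 to 0.75) in CD4 T cells, 0.42 (0.30 to 0.56) in other T cells and 0.34 (0.20 to 0.49) in NK and ILC1. It was 0.19 (0.06 to 0.34) in CD8 T cells, where the gene was highest. In B cells (0.05), monocytes and macrophages (0.11) and pDCs (0.16) the intervals included 0. The neutrophil ratio of 0.66 (0.16 to 1.42) was past 1.5-fold only at this background level, and it was 0.19 when cells with 1 UMI of another class's marker were also gated.

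Cbfb, the partner subunit, was present at similar levels in most classes. Untreated levels ran from 63.54 CPM in neutrophils to 130.2 CPM in NK and ILC1, and ConA levels from 73.21 to 156.3 CPM in the same classes. In the untreated order from NK and ILC1 down to pDCs, each interval overlapped the next. The log2 ratio between libraries was 0.41 (0.18 to 0.69) in CD8 T cells and 0.62 (0.36 to 0.94) in monocytes and macrophages, from 95.82 and 150.4 CPM. The latter was the only Cbfb comparison past 1.5-fold, and it was 0.46 when 1 UMI of another class's marker was allowed. In the other 6 classes the log2 ratio lay between 0.13 and 0.27.

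**Figure D2:**
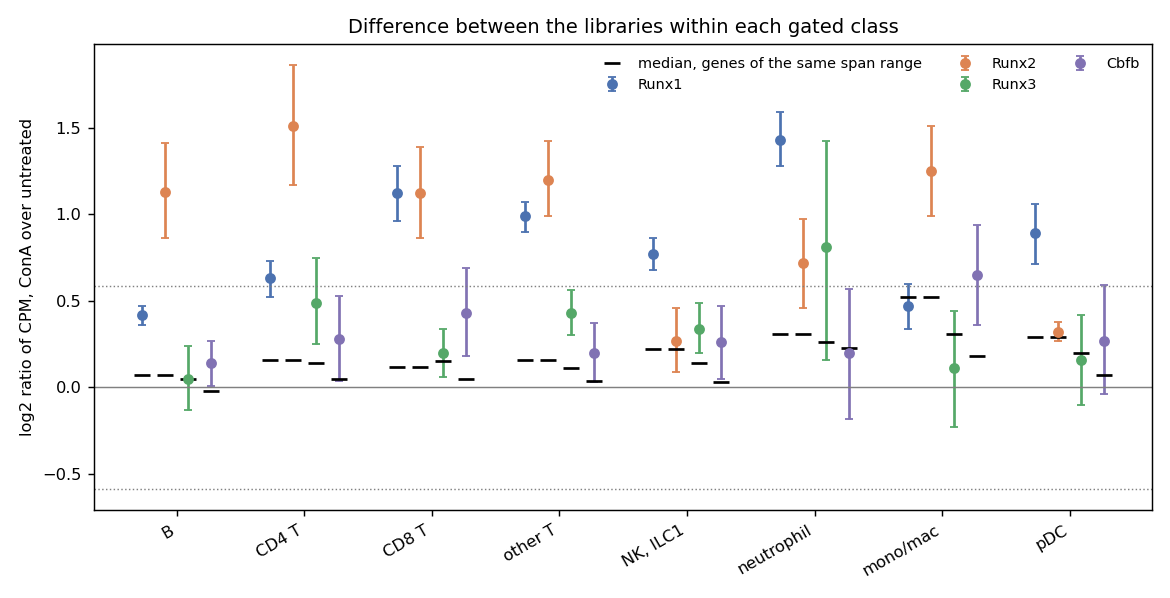
Log2 ratio of CPM, ConA over untreated library, for the 4 genes in each class, without an added constant and with exact 95% counting intervals. Dotted lines mark 1.5-fold. Black bars mark the median ratio, with 5 CPM added, of compared genes in the same range of genomic length. Calls past 1.5-fold in the text also use ratios with 5 CPM added, which are smaller for low levels than the points. Runx1 and Runx2 lie above their bar in most classes, and Runx3 and Cbfb lie nearer to theirs.

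The length of the gene moved with the ratio. Among compared genes that span under 20 kb the median log2 ratio was between -0.13 and 0.12 in the 8 classes, and among genes of 200 kb and over it was between 0.07 and 0.52. Runx1 and Runx2 belong to the range of 200 kb and over, Runx3 to 50 to 100 kb and Cbfb to 20 to 50 kb. Among genes of 200 kb and over, 12.4% were higher past 1.5-fold in CD8 T cells, 31.6% in neutrophils and 46.4% in monocytes and macrophages. The Runx1 ratio in CD8 T cells was exceeded by 2.01% of the 348 genes in that range, and the Runx2 ratio in CD4 T cells by 1.13% of 353. The Runx2 ratio in monocytes and macrophages was exceeded by 16.2% of 371. When each class's ratios were centred on the median of genes in the same range, 8 of the 14 comparisons stayed past 1.5-fold. These were Runx1 in CD8 T cells, other T cells and neutrophils and Runx2 in B cells, the 3 T cell gates and monocytes and macrophages. Runx1 in CD4 T cells (0.46), NK and ILC1 (0.54) and pDCs (0.58) was then within that fold. The part of gene length in the ratios was not tested. Mitochondrial UMIs were 0.9312% to 2.764% of the untreated and 0.6385% to 2.243% of the ConA classes' UMIs, and their part was not tested either.

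The 3 DNA-binding members took different shares of the family's UMIs from class to class. Because capture differs between genes, a share is compared only between classes and libraries and does not give the ratio of the proteins. Runx1 made up 86.94% of the Runx1, Runx2 and Runx3 UMIs in untreated B cells and 86.99% in ConA B cells. In CD8 T cells it made up 35.08% and 46.45%. Runx3 made up 52.03% and 36.44% in CD8 T cells, against 9.745% and 7.579% in B cells and 14.35% and 12.51% in CD4 T cells. In CD8 T cells the Runx3 share was thus lower in the ConA library although the Runx3 level was not, since Runx1 and Runx2 were higher. Runx2 made up 87.47% and 84.57% in pDCs and 33.86% and 24.33% in neutrophils. In CD4 T cells the Runx2 share was 6.835% and 12.04%.

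**Figure D3:**
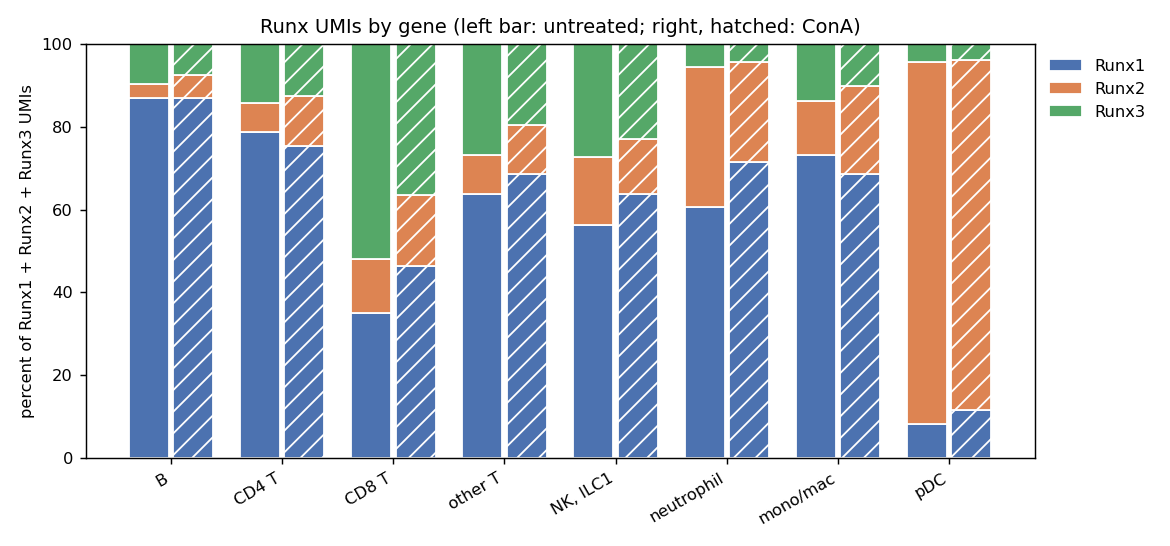
Share of Runx1, Runx2 and Runx3 in the summed UMIs of the 3 genes per class, in percent (left bar untreated, right hatched bar ConA). B cells are mostly Runx1, pDCs mostly Runx2 (87.47% and 84.57%), and CD8 T cells hold the largest Runx3 share in both libraries (52.03% and 36.44%).

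Cells within a gate were divided by further markers to see where the members were high. Among CD8 T cells, those with at least 2 UMIs of Ccl5, a chemokine of effector and memory cells, were taken as a subset. Ccl5 is itself in the list of Runx targets used below. These cells were 143 of 312 gated CD8 T cells in the untreated and 907 of 1177 in the ConA library. Runx1 in them was at 255.3 CPM untreated and 575.6 ConA, with a log2 ratio of 1.16 (0.95 to 1.40), close to the 1.10 of the whole gate. Runx2 was at 141.7 and 229.9 CPM, with a log2 ratio of 0.68 (0.40 to 1.01), against 1.08 in the gate as a whole. Runx3 was at 426.4 and 437.1 CPM, with a log2 ratio of 0.04 (-0.14 to 0.22). In CD8 T cells that carry Ccl5, Runx1 and Runx2 were thus past 1.5-fold higher in the ConA library and Runx3 was not.

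CD4 T cells with at least 2 UMIs of Ccl5 numbered 81 of 384 untreated and 433 of 960 ConA cells. Runx2 in them was at 54.23 CPM untreated and 179.1 ConA, with a log2 ratio of 1.64 (1.11 to 2.40). Runx1 was at 561.2 and 886.1 CPM, with a log2 ratio of 0.65 (0.46 to 0.86), as against 0.62 in the whole CD4 T gate. Runx3 was at 136.8 and 178.6 CPM, with a log2 ratio of 0.37 (-0.02 to 0.81).

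The other T gate holds cells in which no Cd4 or Cd8a UMI was counted, so CD4 and CD8 T cells whose UMIs were missed can be among them. Cd8b1 was at 155.3 CPM untreated and 153.2 ConA in this gate, against 650 and 576 CPM in CD8 T cells. Cd40lg was at 68.04 and 94.54 CPM, against 106 and 181.1 CPM in CD4 T cells. The part of such cells was not tested. Cells with at least 2 UMIs of Trdc, the gamma-delta receptor's delta chain, had Runx1 at 395.0 CPM untreated and 1140 ConA, a log2 ratio of 1.52 (1.23 to 1.85), from 59 and 284 cells. Cells with Zbtb16, the factor known for natural killer T (NKT) and other innate-like T cells, and no Trdc had Runx1 at 569.3 and 1189 CPM, a log2 ratio of 1.06 (0.88 to 1.24). Runx2 separated the subsets in both libraries, with 144.4 CPM in Trdc cells against 38.99 in Zbtb16 cells of the untreated library and 277.9 against 124.9 in the ConA library. Runx3 was at 203.9 and 335.9 CPM in Trdc cells and at 173.5 and 219.1 CPM in Zbtb16 cells.

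In the Ncr1 gate, cells with Eomes, the factor of conventional NK cells, were set against cells without Eomes but with Cd200r1 or Itga1, markers of ILC1. Runx2 in the Eomes cells was at 194.6 CPM untreated and 212.7 ConA, a log2 ratio of 0.13 (-0.15 to 0.41). In the Cd200r1 or Itga1 cells it was at 47.85 and 181.6 CPM, and the log2 ratio was 1.82 (1.24 to 2.69). The Cd200r1 or Itga1 cells were 85 of 626 untreated and 299 of 872 ConA cells of the gate. An Eomes UMI was found in 233 and 257 cells, so NK cells whose Eomes was missed can be among them. Their part was not tested. Without the added constant, the log2 ratio of ILC1-marked over NK-marked cells was -2.02 (-2.78 to -1.34) in the untreated library, from 19 UMIs in 85 ILC1-marked cells, and -0.23 (-0.51 to 0.05) in the ConA library. Runx1 was at 585.7 and 907.8 CPM in the Eomes cells and at 468.4 and 1002 CPM in the ILC1-marked cells. Haemoglobin and Alas2 UMIs in the whole Ncr1 gate were 6919 CPM untreated and 57845 CPM ConA, and their part was not tested. With mitochondrial, ribosomal, immunoglobulin and haemoglobin genes left out of the scaling, no call among the 32 class ratios was lost. Those class ratios do not cover these subsets, and a change of scaling removes no cells from the gate.

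Among monocytes the Runx2 level depended on the subset. Cells with Ace, Cd300e or Treml4 and no Ly6c2, a non-classical pattern, had Runx2 at 316.2 CPM untreated and 308.4 ConA, with a log2 ratio of -0.04 (-0.65 to 0.59). Cells with Ly6c2, a classical pattern, had Runx2 at 81.46 and 120.9 CPM, with a log2 ratio of 0.54 (0.11 to 1.01). Neither subset reached the log2 ratio of 1.21 of the whole gate. The non-classical pattern was found in 29 of 492 untreated and 38 of 150 ConA cells, and the classical pattern in 396 and 53. Markers of conventional dendritic cells (cDCs), summed over Xcr1, Clec9a, Cd209a and Flt3, were at 68.53 CPM in the untreated and 277.6 CPM in the ConA monocyte gate, with 4 of 4 detected in both, and their part was not tested. In neutrophils with few granule UMIs, the mature pattern, Runx1 was at 186.4 CPM untreated and 552.1 ConA, with a log2 ratio of 1.54 (1.40 to 1.73).

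Dendritic cells and basophils were taken by their own markers from the cells outside the gates, most of which carried markers of several classes. cDC1 (Xcr1 and Clec9a) had Runx2 at 918.6 CPM untreated and 751.9 ConA, a log2 ratio of -0.29 (-0.40 to -0.17). cDC2 (Cd209a) had Runx2 at 463.9 and 993.6 CPM, a log2 ratio of 1.09 (0.98 to 1.22), and Runx1 at 726.9 and 619.2 CPM, a log2 ratio of -0.23 (-0.35 to -0.12). Among the gated classes, subsets and outside types compared, Runx2 in cDC1 and Runx1 in cDC2 were the only member ratios whose interval lay below 0. In the pDC gate Clec9a was at 148.9 CPM untreated and 104.9 ConA, Cd209a at 112 and 148.8, and Xcr1 at 0 and 0.4622. Median UMIs per cell were 8211 and 8068 in cDC1 and 7355 and 7719 in cDC2, against 3403 and 3426.5 in all cells outside. The part of pDCs or doublets in these cDC levels was not tested. Basophils and mast cells (Mcpt8 and Cpa3) had Runx1 at 1705 and 2185 CPM from 55 and 96 cells, above all gated classes in both libraries.

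**Figure D4:**
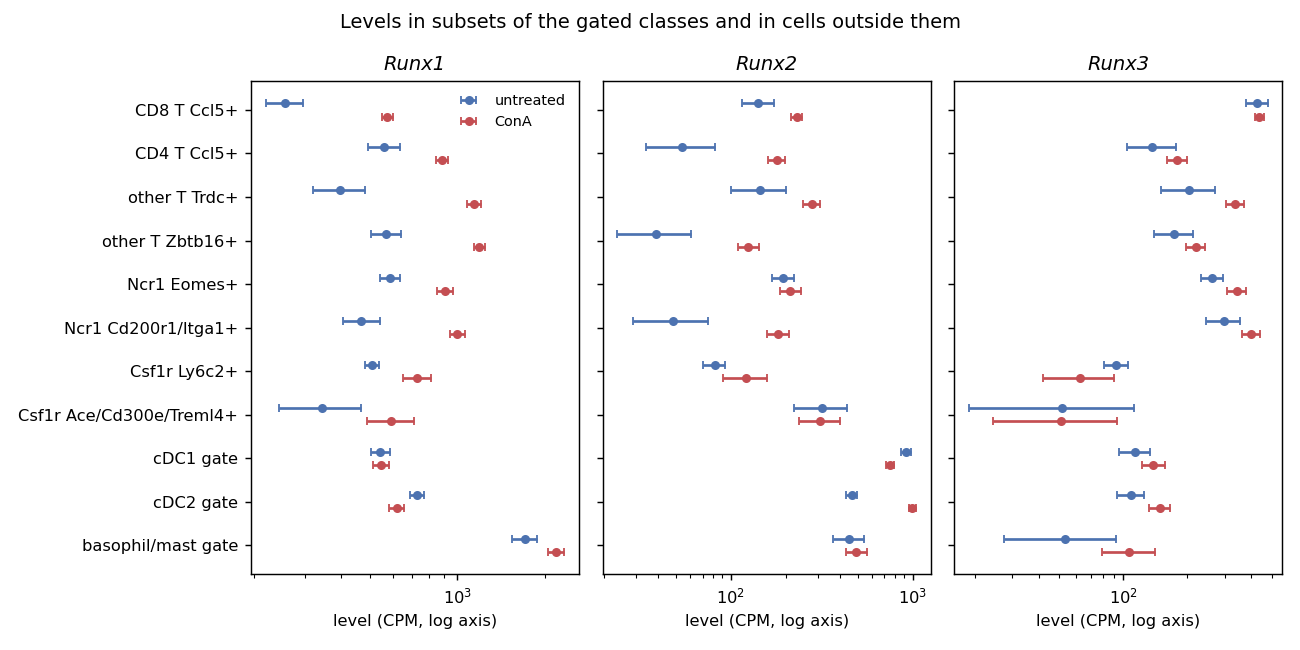
Levels of Runx1, Runx2 and Runx3 (CPM, log axis) in subsets of the gates and in types outside them, untreated (blue) and ConA (red), with exact 95% counting intervals. Runx2 in Cd200r1 or Itga1 cells of the Ncr1 gate is at 47.85 CPM untreated and 181.6 ConA, while non-classical monocytes have 316.2 and 308.4 CPM.

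The numbers of cells per class differed between the libraries, and this entered the members' levels over all gated cells to different extents. Over the gated cells Runx3 was at 113.2 CPM untreated and 205.5 ConA. With untreated levels in every class but the ConA shares of classes it would have been 167.3 CPM, and with untreated shares and ConA levels 138.3 CPM. On the log2 scale the gated difference of 0.86 compares with 0.56 from shares alone and 0.29 from levels alone. For Runx1 the gated difference of 0.84 compares with 0.09 from shares and 0.73 from levels, and for Runx2 0.56 compares with 0.01 and 0.53. For Cbfb 0.40 compares with 0.15 and 0.27. The Runx3 difference over gated cells thus lay mostly in the class shares and that of Runx1 and Runx2 mostly within classes. This is arithmetic on 1 pair of libraries, and gates taken after sorting do not give the liver's cell numbers.

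**Figure D5:**
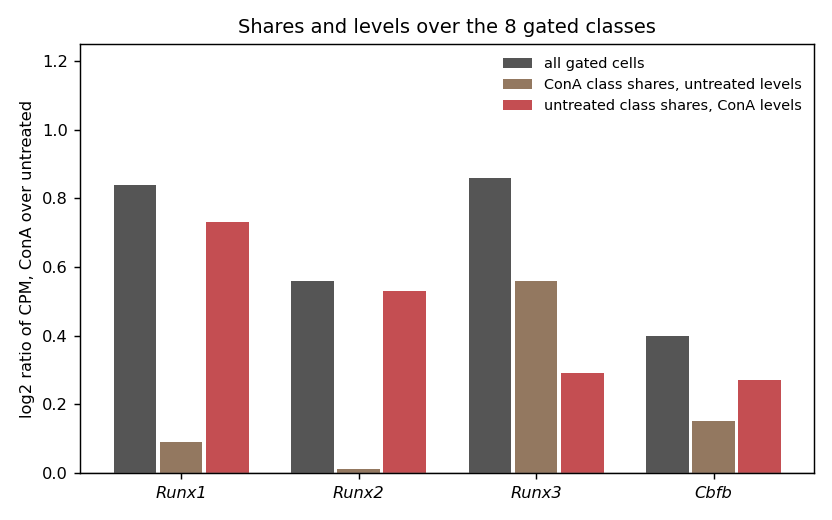
Log2 ratio of CPM over gated cells, ConA over untreated (grey), with only the class shares taken from the ConA library (brown) and with only the levels within classes taken from it (red). Runx3 has 0.56 from shares and 0.29 from levels, and Runx1 has 0.09 and 0.73.

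Across the 16 class and library values, Runx1 and Cbfb had a Pearson r of 0.77 on the log2 scale and Runx3 and Cbfb an r of 0.73, and without the pDC values (14 values) 0.75 and 0.77. Runx2 and Cbfb had an r of -0.12, which turned to 0.24 without the pDC values. These values share libraries and depths and are given as a description. Among 6144 genes, those most like Runx1 over the same values were Tob2 (r = 0.841), Yy1 (0.838) and Crnkl1 (0.836). For Runx2 they were Ptms (0.944), Fgfr1op2 (0.943) and Rps6ka1 (0.936), with 0.787, 0.723 and 0.803 when the pDC values were left out. For Runx3 they were Gnptg (0.931), Galnt2 (0.928) and 4930453N24Rik (0.925). For Cbfb they were St13 (0.959), Impa1 (0.948) and Cep250 (0.943).

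Partners and cofactors of Runx proteins were taken as a list of 25 genes. Members past 1.5-fold higher in the ConA library numbered 2 of 17 compared in B cells, 6 of 19 in CD4 T, 4 of 19 in CD8 T, 4 of 21 in other T, 2 of 19 in NK and ILC1, 6 of 18 in neutrophils, 8 of 19 in monocytes and macrophages and 5 of 17 in pDCs. Those past it lower numbered 0, 1, 1, 1, 3, 0, 0 and 1 in the same order. Over all genes compared, the shares higher in that order were 3.52%, 5.47%, 7.39%, 5.36%, 6.08%, 19.8%, 21.7% and 8.28%. The shares lower were 5.89%, 5.35%, 6.56%, 5.17%, 7.76%, 10.4%, 8.7% and 6.44%, so several of these counts are near the share over all genes. The 2 B cell genes past 1.5-fold higher stood near free RNA: Bcl11b was at 16.8 and 34.8 CPM against estimates of 12.08 and 43.64, and Tbx21 at 9.769 and 20.45 CPM against 4.769 and 17.0. Bcl11b in neutrophils was at 17.13 and 40.56 CPM against 14.56 and 35.96. Ets1 in monocytes and macrophages was at 33.27 and 74.7 CPM against 31.82 and 50.2. Gata2 in ConA neutrophils had 7 of its 14 UMIs in 1 cell, and Erg in ConA monocytes and macrophages 11 of 12. The list's median log2 ratio was between 0.10 and 0.34, where that of all compared genes was between -0.02 and 0.20. Tbx21, the T-bet factor that works with Runx3 in T helper and cytotoxic cells, was at 68.76 CPM untreated and 160.6 ConA in CD4 T cells, at 66.03 and 186.5 CPM in CD8 T cells and at 115.3 and 205.0 CPM in other T cells. It was past 1.5-fold higher in all 3 T cell gates. Eomes, its relative, was at 32.33 and 63.22 CPM in CD8 T cells.

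Among corepressors, Cbfa2t3, a partner of the ETO family, was at 213.3 CPM untreated and 421.1 ConA in pDCs, a log2 ratio of 0.96 (0.80 to 1.16). Foxp3, the regulatory T cell factor that binds Runx1, was at 31.54 and 11.84 CPM in CD4 T cells and was past 1.5-fold lower. Spi1, the myeloid factor PU.1, was at 44.02 and 21.46 CPM in CD8 T cells, where free RNA was estimated at 31.7 and 14.49 CPM. Bcl11b, a T cell identity factor, was at 46.48 and 112.5 CPM in NK and ILC1, whose 5 T cell markers summed to 786.4 and 1085 CPM with 5 of 5 detected in both libraries. Prmt1, a methyltransferase that acts on Runx1, was at 139.4 and 76.04 CPM there and was past 1.5-fold lower.

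Of 7 regulators of Runx stability and phosphorylation, 0 were past 1.5-fold in B cells, other T cells and NK and ILC1. In CD4 T cells 2 were higher and 1 was lower, in CD8 T cells 1 was lower, in neutrophils 1 and in monocytes and macrophages 2 were higher, and in pDCs 1 was higher. Over all genes, 19.8% in neutrophils, 21.7% in monocytes and macrophages and 3.52% to 8.28% in the other classes were higher past 1.5-fold. Between 5.17% and 10.4% were lower past it. With 7 genes, such counts are too small to be read against these shares. Hipk2, a kinase of Runx1, was at 87.05 CPM untreated and 53.26 ConA in CD4 T cells and at 78.41 and 48.97 CPM in CD8 T cells. Smurf1, a ubiquitin ligase known to target Runx2, was at 42.26 and 67.16 CPM in CD4 T cells and at 33.16 and 54.08 CPM in pDCs. Cdk6, a kinase known to bind Runx1, was at 52.23 and 125.2 CPM in monocytes and macrophages, with 30 of its 124 ConA UMIs in 1 cell. The gene past 1.5-fold in neutrophils was also Cdk6, at 24.5 and 51.44 CPM, with 26 of its 52 ConA UMIs in 1 cell.

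Known targets of Runx proteins were taken as a list of 20 genes, without the gating genes. Members past 1.5-fold higher in the ConA library numbered 3 of 8 compared in B cells, 3 of 13 in CD4 T, 4 of 12 in CD8 T, 3 of 14 in other T, 5 of 11 in NK and ILC1, 4 of 7 in neutrophils, 5 of 8 in monocytes and macrophages and 3 of 7 in pDCs. Those past it lower numbered 0, 4, 2, 2, 1, 2, 0 and 1. Over all genes compared, the shares higher in that order were 3.52%, 5.47%, 7.39%, 5.36%, 6.08%, 19.8%, 21.7% and 8.28%. The shares lower were 5.89%, 5.35%, 6.56%, 5.17%, 7.76%, 10.4%, 8.7% and 6.44%. Of the target genes counted, Il7r stood at free RNA in B cells (12.9 and 27.95 CPM against estimates of 10.21 and 26.38) and in neutrophils (13.44 and 22.75 CPM against 12.31 and 21.74). Pf4 in ConA B cells had 183 of its 272 UMIs in 1 cell. In ConA NK and ILC1 it had 62 of 150 UMIs in 1 cell, and in ConA other T cells 23 of 125. The 4 platelet markers, Pf4 included, summed to 19.26 CPM untreated and 73.46 CPM ConA in NK and ILC1. In NK and ILC1 the 1 lower gene of 11 stands beside 7.76% of all genes lower there, a share near the background. Ccl5 was at 4071 CPM untreated and 8255 ConA in CD8 T cells, a log2 ratio of 1.02 (0.98 to 1.06), and Prf1, which encodes perforin, was at 59.84 and 113.0 CPM. Gzmb, which encodes granzyme B, had a lower level in the same cells, at 877.0 and 483.7 CPM. Yet a larger share of ConA CD8 T cells held a Gzmb UMI (605 of 1177, against 116 of 312 untreated). The most Gzmb UMIs in 1 CD8 T cell were 111 untreated and 32 ConA. Gzmb was lowest relative to untreated in NK and ILC1, at 1871 and 644.1 CPM with a log2 ratio of -1.53 (-1.62 to -1.46). Itgae, the CD103 integrin chain whose expression in CD8 T cells depends on Runx3, was at 63.28 and 20.68 CPM in CD8 T cells.

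In other T cells Blk, a Src-family kinase, was at 18.56 CPM untreated and 104.3 ConA, a log2 ratio of 2.21 (2.10 to 2.90). Il7r, the interleukin-7 receptor chain silenced by Runx1 in some settings, was at 44.39 and 119.2 CPM in NK and ILC1 and at 150.1 and 250.5 CPM in pDCs. Ccl5 in B cells, at 89.35 and 275.1 CPM, stood at free RNA estimates of 84.14 and 326.9 CPM, and in neutrophils, at 95.59 and 195.9 CPM, below estimates of 101.5 and 269.4 CPM. Elane, the neutrophil elastase gene, was at 3.327 and 178.7 CPM in monocytes and macrophages, where the 177 ConA UMIs came from 7 of 150 cells and 94 of them from 1 cell. Pf4, a platelet gene that Runx1 activates, was at 14.97 and 151.4 CPM there, with 150 UMIs in 10 of 150 ConA cells and 64 in 1 cell, beside 4 platelet markers (Pf4 included) that summed to 24.29 and 156.5 CPM. The part of a few cells of other lineages in these last values was not tested.

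A gene antisense to Runx2, Runx2os1, was at 36.29 CPM untreated (58 UMIs) and 24.5 CPM ConA (53 UMIs) in pDCs and at no more than 5.936 CPM elsewhere. How strand was treated in counting was not given in the sources used here, so reads of Runx2 and its antisense gene may not be separated. Set beside the 4106 and 6943 Runx2 UMIs of the same cells, the antisense counts were few.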

How the data were processed

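Per the labels' protocols, CD45+ liver cells were profiled with a 10x Genomics 3' kit. The authors deposited raw UMI counts per gene and barcode for 2 libraries. Cell Ranger 8.0.1 stands in the file headers, but version 6.0.1 in the submitters' processing notes, which also list Seurat 4.3.0 and the genome build mm39. The handling of intronic reads was not given in the sources used here. Of the libraries, the untreated had 18088 barcodes with 71289226 UMIs in all and ConA 18762 with 73589264, and no barcode had fewer than 500 UMIs.

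From these counts, cells were kept with at least 500 UMIs, 300 genes and at most 10% mitochondrial UMIs. Gates required at least 2 UMIs of Cd79a, Csf3r, Csf1r or Siglech, or at least 1 of Cd3e (with Cd4 or Cd8a) or Ncr1, and none of another class's markers, except that Csf1r was allowed in pDCs. UMIs were summed per class and library as CPM. Genes with at least 10 CPM in 1 library were compared, gating markers left out. No test between groups was made. Intervals are exact Poisson (levels), conditional binomial (ratios) and Clopper-Pearson (shares). Detection shares were also taken after thinning to 1000 UMIs, leaving out shallower cells (in neutrophils 118 untreated and 22 ConA cells). Free RNA was estimated from S100a8 and S100a9 (Igkc in myeloid classes). Haemoglobin-rich cells had at least 10% haemoglobin UMIs. Doublets were removed only by the exclusive gates in the values given, and by Scrublet scores as an alternative.

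The members and lists were chosen with earlier results of these data known. Named list genes were up to 3 per direction, class and list with the largest ratio past 1.5-fold and at least 50 UMIs, and some of them, and of the subsets of cells, are not reported here. Genes most like a member needed 50 CPM in 1 class. Gene spans and promoters came from RefSeq tables of GRCm38.p6, not the files' build, so spans serve as ranges only. Centring by span, subtraction of free RNA and correlations without the pDC values were added after seeing the data. The ratio code was tested on simulated counts. Python 3.11.15, numpy 2.4.6, scipy 1.17.1, pandas 2.3.3 and scanpy 1.11.5 were used.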

Additional observations from a re-analysis of the deposited data

How the results depend on the processing

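With 1 library per group no library could be left out. No paired analysis was possible because each group has 1 library. Of 13 alternatives run on the 32 class ratios none turned a ratio past 1.5-fold to the opposite sign. Ratios within 1.5-fold fell to 0 or below in 5 comparisons with span-matched centring (Runx1 in monocytes and macrophages -0.05, Cbfb in neutrophils -0.04, and Runx3 in B cells, monocytes and macrophages and pDCs, the lowest -0.20), in 2 with doublets removed (Runx3 in B cells -0.05 and in monocytes and macrophages -0.08), in 1 with per-cell means (Runx3 in monocytes and macrophages -0.17) and in 1 with free RNA subtracted (Runx3 in B cells -0.39). The count of 14 comparisons past 1.5-fold was between 11 and 14 under the alternatives other than span-matched centring, which gave 8. Calls lost were, beside those named above, Runx1 in CD4 T cells with median-of-ratios scaling or free RNA subtracted (0.58 in both), Runx2 in B cells with free RNA subtracted (0.31), Runx2 in neutrophils with 1 UMI of every gating marker (0.45) or span-matched centring (0.38), Runx3 in neutrophils with median-of-ratios scaling (0.56) or span-matched centring (0.40), Cbfb in monocytes and macrophages with per-cell means (0.50), median-of-ratios scaling (0.56) or span-matched centring (0.45), and Runx1 in pDCs with 1 foreign UMI allowed (0.52). The cause was not tested.

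Over all kept cells the log2 ratio of Runx1 was 0.70 with per-cell means, 0.77 without mitochondrial, ribosomal, immunoglobulin and haemoglobin genes, 0.59 with median-of-ratios scaling and 0.36 with span-matched centring. That of Runx2 was 0.55, 0.81, 0.63 and 0.41 under the same settings. Runx3 was at 0.90 without those genes and 0.58 with span-matched centring, and Cbfb at 0.45 and 0.20. Centred by span, none of the 4 was past 1.5-fold.

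Shares of family UMIs moved beyond their counting interval mainly with the gates. With 1 UMI of every gating marker, Runx1 made up 85.39% (untreated) and 84.95% (ConA) in B cells, 64.79% in untreated neutrophils and 11.63% and 15.36% in pDCs. Runx2 made up 5.037% and 6.943% in B cells, 26.69% and 20.52% in neutrophils, 14.93% in untreated monocytes and macrophages and 83.94% and 80.43% in pDCs, and Runx3 8.515% and 8.742% in neutrophils. With 1 UMI of another class allowed, ConA B cells had 84.07% Runx1, 7.264% Runx2 and 8.669% Runx3. Untreated neutrophils then had 63.17%, 29.12% and 7.71%, ConA monocytes and macrophages 18.49% Runx2, and untreated pDCs 10.35% Runx1 and 85.42% Runx2. With doublets removed, Runx2 made up 2.719% and 4.873% in B cells, Runx1 88.12% in ConA B cells and 9.029% in ConA pDCs, and Runx2 87.36% in ConA pDCs. With 2 UMIs of every gating marker, Runx3 made up 20.43% in ConA other T cells.

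Depth limits Runx3 in neutrophils (92 and 30 UMIs) and the subsets with few cells, such as Runx2 in untreated Cd200r1 or Itga1 cells of the Ncr1 gate (19 UMIs).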

Other observations

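CD4 T cells with a Foxp3 UMI, the regulatory T cell gate, numbered 20 untreated and 31 ConA cells. Runx2 was at 25.6 CPM there in the untreated library, from 3 UMIs, and at 252.2 CPM in the ConA library, from 33 UMIs, a log2 ratio of 3.07 (1.63 to 5.65). Runx1 was at 708.2 and 940.2 CPM in the same cells and Runx3 at 145.1 and 160.5 CPM. Macrophages with at least 2 UMIs of C1qa, a complement gene of resident macrophages, numbered 21 and 6, too few for a comparison. In the untreated library these 21 cells had Runx3 at 173.8 CPM (112.5 to 256.6) and Runx2 at 20.86 CPM (4.302 to 60.96), against 92.43 and 81.46 CPM in classical monocytes. Their Runx1 level of 521.5 CPM was close to the 508.4 CPM of classical monocytes.

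Cells outside the gates, which carry no lineage marker, markers of several classes, or 1 marker below its threshold or Cd4 with Cd8a, had Runx1 at 463.6 CPM untreated and 655.8 ConA, Runx2 at 164.0 and 277.8 CPM and Runx3 at 107.4 and 178.6 CPM. Runx1t1, the ETO gene known as a fusion partner of Runx1 in leukaemia, had 0 UMIs in the 8 untreated classes and 3 UMIs in all 8 ConA classes together. Neutrophils with at least 10 granule UMIs (Ngp, Camp and Ltf), the immature pattern, had Runx1 at 94.23 CPM untreated from 8 UMIs in 15 cells and at 342.9 CPM ConA in 43 cells, below the 186.4 and 552.1 CPM of the other neutrophils.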
